A study of Chlamydomonas reinhardtii with 28 samples.

Results

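The light-harvesting proteins that surround photosystem I (PSI) of the green alga *Chlamydomonas reinhardtii* are encoded by the 9 nuclear genes LHCA1 to LHCA9. All 9 were found by symbol in the deposited expression table, which lists 17611 genes. RNA was sequenced from 28 cultures, 4 biological replicates of each of 7 'wild type' laboratory strains. CC-124, CC-1009, CC-1691, CC-4532 and CC-4533 are of mating type minus, and CC-125 and CC-1690 of mating type plus. No strain was treated, and all were grown photoheterotrophically to the middle of the logarithmic phase, in Tris-Acetate-Phosphate (TAP) medium with Kropat's trace metals, shaken at 180 rpm under continuous light of 50 to 70 μmol photons per square metre and second. The cultures are called replicates and tested as independent, although which of them shared an inoculation batch is not given. CC-4532 is the strain whose genome the reads were mapped to, and CC-4533 is the parent of the CLiP library of insertion mutants. What follows describes how abundant the 9 RNAs were relative to each other, how their proportions differed between the strains and how they varied together.

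LHCA proteins bind chlorophyll *a*, chlorophyll *b* and carotenoids and pass the absorbed energy to the PSI reaction center. In the Chlamydomonas PSI supercomplex they are arranged as an inner and an outer belt along the same side of the core, with a further pair on the opposite side. LHCA3, LHCA7 and LHCA8 are subunits of the inner belt, LHCA4, LHCA5 and LHCA6 of the outer belt, LHCA2 and LHCA9 form the separate pair, and LHCA1 has a place in both belts. These places come from structural work on the protein complex and are used here only to order the genes, since RNA levels say nothing about the composition of the complex.

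The values are FPKMs, fragments of a gene scaled to its length and to the sequencing depth of the library, so levels of different genes can be set side by side per unit of length. The files used hold no counts, which leaves sequencing depth unknown and counting error without a value. Between 16121 and 16594 genes were listed above 0 in a library. RNA of MID1, the gene that determines mating type minus, had 3.12 FPKM or more in all 20 libraries labelled mt− and 0.08 FPKM or less in all 8 labelled mt+. CC-125 and CC-4533 carry another set number in their library names than the other 5 strains and were inoculated as 1 batch of 4 flasks rather than 2 batches of 2, so library set and strain cannot be told apart for them. CC-4533 replicate 3 had the lowest mean correlation with the other replicates of its strain (0.930, across genes, against 0.965 or higher in the other 27 libraries). CC-1690 replicate 2 had the largest summed FPKM (1319895). Results that rest on either library are given with and without them.

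By mean FPKM the 9 genes were among the most abundant in the table, ranking between 48 and 120 of 17611. Averaged over the 7 strain means, LHCA1 was the most abundant at 3032 FPKM. It was followed by LHCA7 at 2651, LHCA3 at 2565, LHCA9 at 2521, LHCA2 at 2305, LHCA5 at 2298, LHCA8 at 2269.5, LHCA6 at 1996 and LHCA4 at 1526 FPKM. The highest mean was 1.99 times the lowest. LHCA1 had the highest mean and LHCA4 the lowest mean in all 7 strains.

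The order between these ends was not separated by the spread between strains. LHCA1 exceeded LHCA7, its nearest neighbour in the order, in 26 of 28 libraries and in 7 of 7 strain means, and LHCA6 exceeded LHCA4 in 28 of 28 libraries and 7 of 7 strain means. An exact two-sided permutation test over the 7 strain means gave p = 0.0156 for each, the smallest p that 7 strains allow, and an adjusted p of 0.0625 over the 8 pairs of neighbours. The other 6 pairs of neighbours had adjusted p of 0.167 to 0.922 by the same exact test. LHCA7 and LHCA3 differed by 0.00 ± 0.18 (SD over strains, n = 7) on the log2 scale and LHCA2 and LHCA5 by 0.01 ± 0.24. The genes in the middle also changed places from strain to strain. LHCA8 ranked 2 in CC-125 and 8 in CC-1009 and CC-4532, LHCA2 ranked 2 in CC-1009 and 8 in CC-125, and LHCA5 ranked 2 in CC-4532 and 8 in CC-4533.

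**Figure D1:**
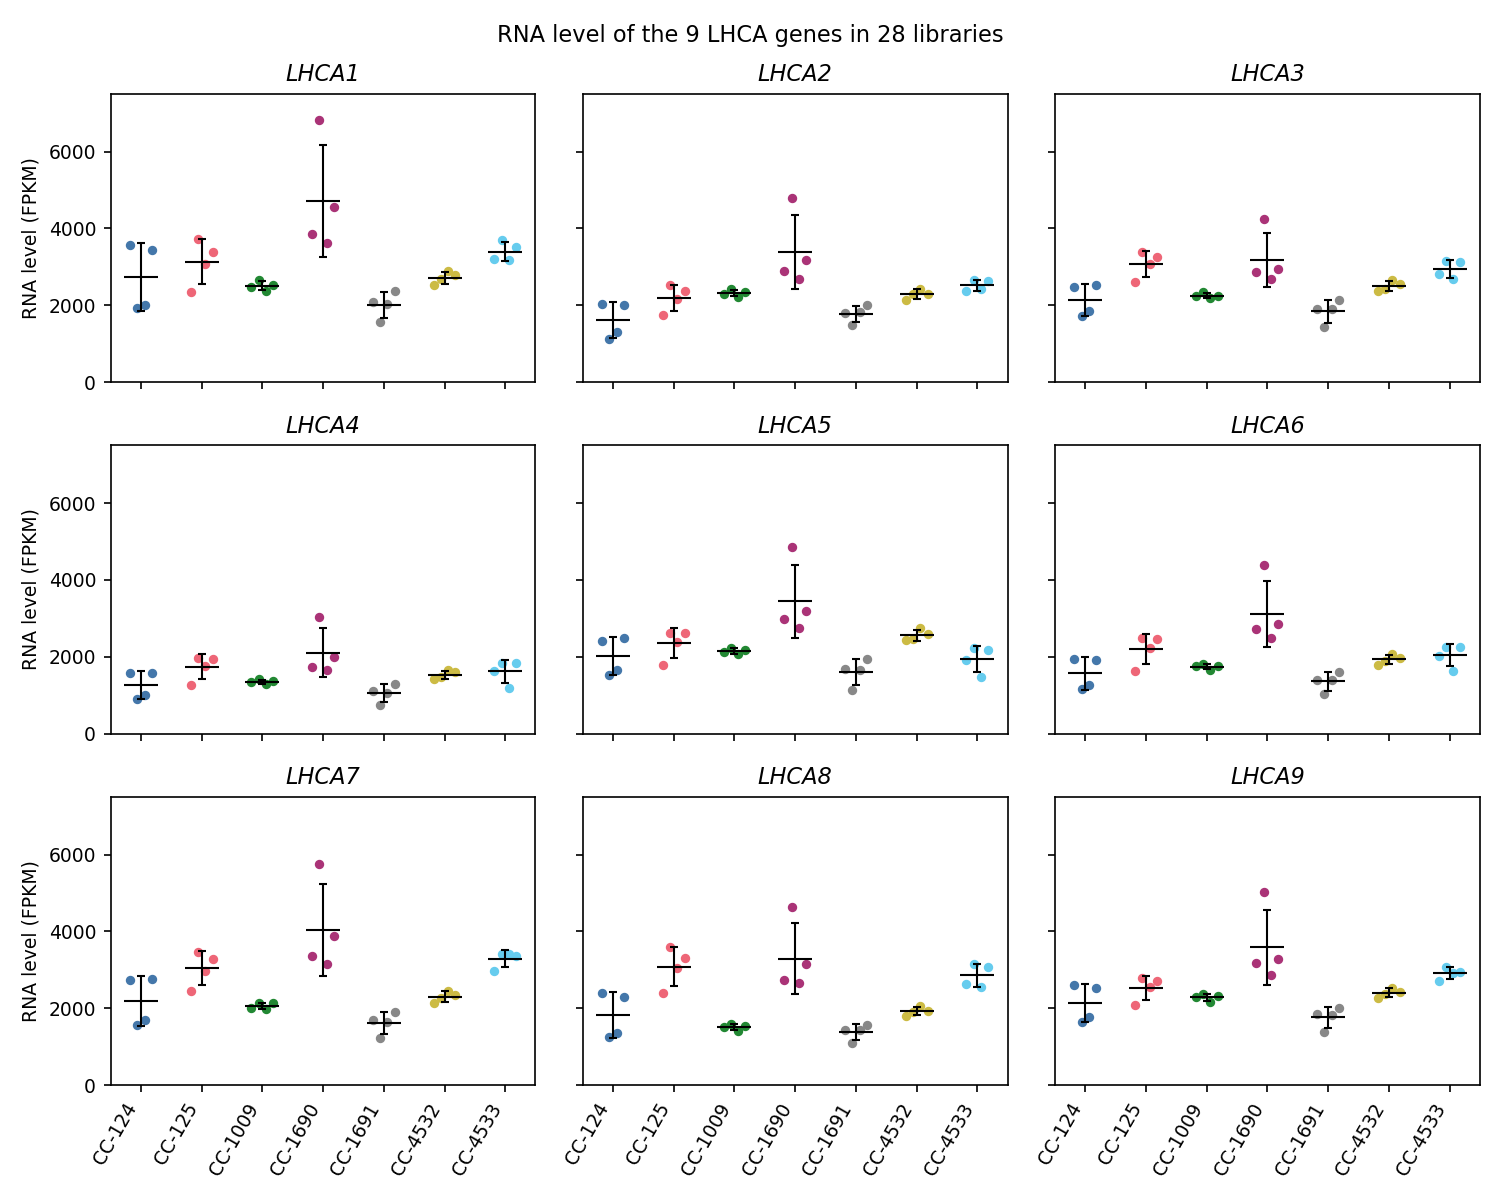
RNA level in FPKM (vertical axis, from 0) of each LHCA gene by strain (horizontal axis). Points are the 28 libraries, with replicates 1 to 4 from left to right, the horizontal bar is the mean of 4 and the error bar is the SD. CC-1690 replicate 2 is the highest library for all 9 genes, and the 4 replicates of CC-124 fall into a high and a low pair.

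LHCA1, the subunit with a place in both belts, was listed at 3852, 6826, 3626 and 4545 FPKM in the 4 replicates of CC-1690 and at 2090.2, 1571, 2023 and 2370.2 FPKM in those of CC-1691. In CC-124 it was 3563, 1924, 2006 and 3447 FPKM and in CC-125 2359, 3714, 3068 and 3395 FPKM. The remaining strains lay between 2373 and 3699 FPKM. The lowest replicates of CC-1690 overlapped with the highest of CC-125 and CC-4533, while CC-1691 overlapped with CC-124 and CC-125.

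Among the subunits of the inner belt, LHCA8 varied the most between strains in its place in the order. LHCA8 was listed at 1515, 1603, 1417 and 1547 FPKM in CC-1009 and at 1426, 1088, 1426 and 1575 FPKM in CC-1691. It was 2397, 3595, 3042 and 3298 FPKM in CC-125, 2645, 3149, 2559 and 3086 FPKM in CC-4533 and 2729, 4628, 2653 and 3158 FPKM in CC-1690. These low and high strains did not overlap, and CC-124 spanned the gap between them with 2406, 1246, 1371 and 2298 FPKM. LHCA7 ranged more widely over the strain means, from 1618 ± 286 FPKM in CC-1691 to 4039 ± 1188 FPKM in CC-1690 (mean ± SD, n = 4). LHCA3 had the narrowest range of the 9 as a fold, 1.73, from 1841 ± 299 FPKM in CC-1691 to 3182 ± 709 FPKM in CC-1690.

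In the outer belt, LHCA5 was the only LHCA gene with a higher mean in CC-4532 than in CC-4533. LHCA5 was 2434, 2465, 2753 and 2586 FPKM in CC-4532 and 1924, 2224, 1477 and 2182 FPKM in CC-4533. The other 8 LHCA genes had higher means in CC-4533 than in CC-4532 on the scale of the deposited values. LHCA6 reached 2730.1, 4395, 2478 and 2854 FPKM in CC-1690 against 1399, 1032, 1395 and 1610.5 FPKM in CC-1691. LHCA4, the least abundant of the 9, was 1732, 3030.2, 1654 and 1998 FPKM in CC-1690 and 1113, 753, 1067 and 1302 FPKM in CC-1691. In CC-4533 replicate 3 all 3 outer belt genes were at the low end of their strain, LHCA4 at 1203 FPKM against 1636 to 1846 FPKM in the other replicates.

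Of the pair on the other side of the core, LHCA2 was the only LHCA gene with its lowest mean in CC-124, where it was 2043, 1135, 1317 and 2019 FPKM. LHCA2 was also the only LHCA gene whose 4 CC-1690 replicates, 2891, 4792, 2697 and 3180.1 FPKM, all lay above the other 24 libraries. Of all genes tested, 7.06% had their 4 CC-1690 replicates above the other 24 libraries. LHCA9, its partner, ranged from 1772 ± 271 FPKM in CC-1691 to 3586 ± 971 FPKM in CC-1690.

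Replicates of the same strain differed together. The coefficient of variation of the 9 genes was 2.79 to 5.12% in CC-1009 and 4.83 to 7.12% in CC-4532, but 19.2 to 33.1% in CC-124 and 22.3 to 31.0% in CC-1690. In CC-124 replicates 1 and 4 were higher than replicates 2 and 3 for all 9 genes. Summed over all genes, the FPKMs of these replicates were 746195, 480355, 489219 and 687533, in the same grouping. Whether the 2 batches of flasks match this grouping is not given, and its part in the spread was not tested.

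Differences of a strain from the average of the remaining 6 were tested by limma on log2(FPKM + 0.1), over the 14785 genes that exceeded 1 FPKM in the mean of any strain, at a Benjamini-Hochberg adjusted p below 0.05. All 9 genes differed between the 7 strains by the F test, as did 95.2% of all genes tested. The strains with the highest and lowest mean differed between 1.73-fold (LHCA3) and 2.50-fold (LHCA7), with a median of 2.15 against 2.32 over all genes tested. In CC-1690 all 9 genes were higher on the deposited scale (34.2% of all genes were). The largest difference was 0.78 in LHCA6 (SE 0.14, limma adjusted p = 2.66e-05). The smallest was 0.38 in LHCA3 (SE 0.11, limma adjusted p = 0.00423). But with quantile normalization none was higher (33.8% of all genes were) and 2 were lower (33.2% of all genes were). In CC-1691 all 9 were lower on the deposited scale (23.6% of all genes were). LHCA7 differed the most there, at -0.76 (SE 0.14, limma adjusted p = 7.24e-05). LHCA2 differed the least, at -0.38 (SE 0.13, limma adjusted p = 0.0192). None was lower there with quantile normalization (23.2% of all genes were), and LHCA2 was higher (23.0% of all genes were). Without CC-1690 replicate 2, 8 genes were higher in CC-1690, all but LHCA3 (0.23), and 9 were lower in CC-1691. The 7 comparisons share libraries and are not independent.

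Over all 7 strains 15 of the 63 differences were higher and 13 lower on the deposited scale. Per strain, 23.4 to 34.2% of all genes were higher and 23.6 to 35.3% lower. The 5 strains other than CC-1690 and CC-1691 had fewer LHCA differences each. In CC-124 LHCA2, LHCA3 and LHCA6 were lower (27.9% of all genes were), LHCA2 at -0.58 (SE 0.13, limma adjusted p = 6.34e-04). Quantile normalization gave 1 LHCA gene higher there (29.4% of all genes were) and 1 lower (29.1% of all genes were). As deposited, the count lower in CC-124 was 7 without replicate 1 or without replicate 4, the pair with the higher levels. It was 1 without replicate 2 or without replicate 3. In CC-125 LHCA3 and LHCA8 were higher (30.4% of all genes were), LHCA8 at 0.61 (SE 0.14, limma adjusted p = 7.94e-04). Only LHCA8 was higher there with quantile normalization (27.3% of all genes were). LHCA1, LHCA2, LHCA5, LHCA6 and LHCA9 were then lower, at -0.19 to -0.46 (30.8% of all genes were). In CC-4533 LHCA3, LHCA7, LHCA8 and LHCA9 were higher (29.2% of all genes were), at 0.27 to 0.49 on the log2 scale. As deposited, the count higher in CC-4533 was 3 without its replicate 1 or 3 (27.9 and 31.2% of all genes were). It was 2 without its replicate 2 or 4 (26.4 and 26.5%), and 4 without CC-1690 replicate 2 and CC-4533 replicate 3 together (32.7%). After quantile normalization none of the 9 was higher there (34.5% of all genes were) and 7 were lower (26.5% of all genes were). In CC-1009 only LHCA8 was lower (24.5% of all genes were), at -0.56 (SE 0.14, limma adjusted p = 0.00214). LHCA8 was also lower there with quantile normalization (26.8% of all genes were). LHCA2, LHCA5 and LHCA9 were then higher, at 0.35, 0.24 and 0.17 (24.2% of all genes were). In CC-4532 none passed the test, with log2 differences from -0.17 to 0.25 and none at an unadjusted p below 0.05. But all 9 were higher there with quantile normalization (25.2% of all genes were).

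The direction of a whole-family difference thus depended on how the libraries were scaled. The deposited scale put the median of all genes at a log2 difference between -0.01 and 0.01 in each strain. Median-ratio scaling divides each library by the median of its ratios to the mean level of each gene. It hardly changed the deposited values, with a median LHCA difference in CC-1690 of 0.694 under both, so it is not a separate check. It left 9 genes higher in CC-1690 (34.2% of all genes were) and 9 lower in CC-1691 (23.6% of all genes were). When every library was given the same summed FPKM, the median of all genes moved to -0.53 in CC-1690, 0.47 in CC-1691, -0.39 in CC-4533 and 0.25 in CC-4532. On that scale 3 LHCA genes were higher (11.3% of all genes were) and LHCA3 was lower (60.3% of all genes were) in CC-1690. In CC-1691 2 were lower (5.59% of all genes were), and in CC-4532 6 were higher (40.4% of all genes were). In CC-4533 4 were lower (54.0% of all genes were) and none higher (9.03% of all genes were). In CC-125 LHCA8 was higher (15.2% of all genes were) and LHCA1, LHCA2 and LHCA9 were lower (43.7% of all genes were). In CC-1009 LHCA2 was higher (35.1% of all genes were) and LHCA8 was lower (11.5% of all genes were). In CC-124 only 1 was lower (11.5% of all genes were). The 9 genes made up 2.27 to 3.61% of the summed FPKM of a library, with the highest mean in CC-4532 (3.43% ± 0.119, SD, n = 4) and the lowest in CC-4533 (2.72% ± 0.286). CC-1690, with the highest FPKMs, had 3.15% ± 0.161.

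**Figure D2:**
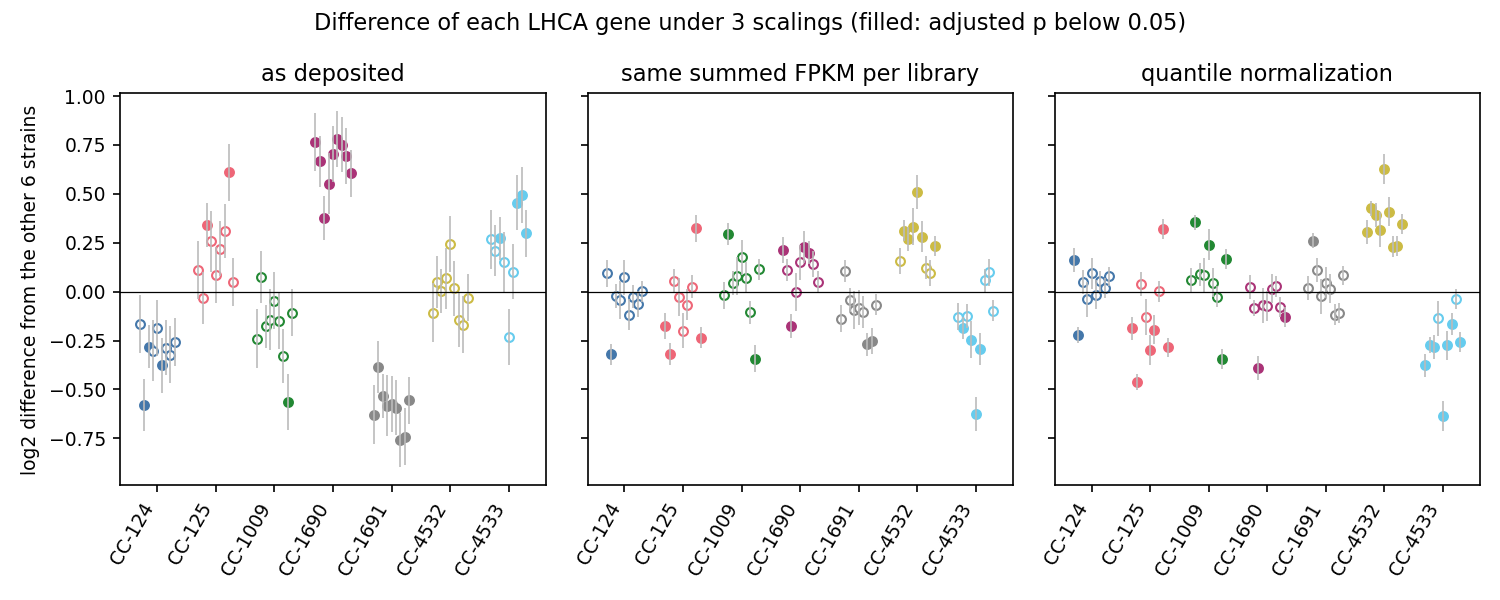
Log2 difference of each LHCA gene from the mean of the other 6 strains (vertical axis, the bar is the SE) by strain (horizontal axis), LHCA1 to LHCA9 from left to right within a strain, under 3 scalings. Filled points had an adjusted p below 0.05. The 9 points of CC-1690 lie at 0.38 to 0.78 as deposited and those of CC-4532 around 0, whereas with quantile normalization CC-4532 has all 9 points above 0.

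Between pairs of strains, a difference was called at an adjusted p below 0.01 and more than 2-fold. Of the 189 combinations of 9 genes and 21 pairs, 11 were called, against 17.4% of all combinations of genes and pairs. Of these, 5 were between CC-1690 and CC-1691, from 2.14-fold in LHCA5 to 2.46-fold in LHCA7, and for this pair of strains 22.2% of all genes were called. LHCA8 accounted for 5 of the 11, being 2.01-fold higher in CC-125 than in CC-1009, 2.11-fold higher in CC-1690 than in CC-1009, and 2.35-, 2.23- and 2.08-fold higher in CC-1690, CC-125 and CC-4533 than in CC-1691. Of all genes, 17.1% were called between CC-125 and CC-1009, 22.6% between CC-1690 and CC-1009, 17.7% between CC-125 and CC-1691 and 18.2% between CC-4533 and CC-1691. The others were LHCA2 between CC-1690 and CC-124 (2.10-fold, with 15% of all genes called) and LHCA7 between CC-4533 and CC-1691 (2.06-fold). Without CC-1690 replicate 2 the count was 7, with the same summed FPKM in every library it was 0, and with quantile normalization it was 1.

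The proportions of the 9 RNAs do not depend on the factor by which a library is scaled. Each gene was expressed as a percentage of the summed FPKM of all 9, where equal parts would be 11.1%. LHCA1 had a mean share of 14.2%, followed by LHCA7 (12.4%), LHCA3 (12.3%), LHCA9 (12.0%), LHCA2 (11.0%), LHCA5 (10.9%), LHCA8 (10.5%), LHCA6 (9.38%) and LHCA4 (7.23%). Within a strain the shares had a median SD of 0.233 percentage points over the 63 combinations of gene and strain. In 6 of the 63 the 4 replicates lay outside the range of the other 24 libraries, 3 above and 3 below. Relative to the same LHCA sum, this held above for 2.09% and below for 3.27% of all combinations of genes tested and strains.

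**Figure D3:**
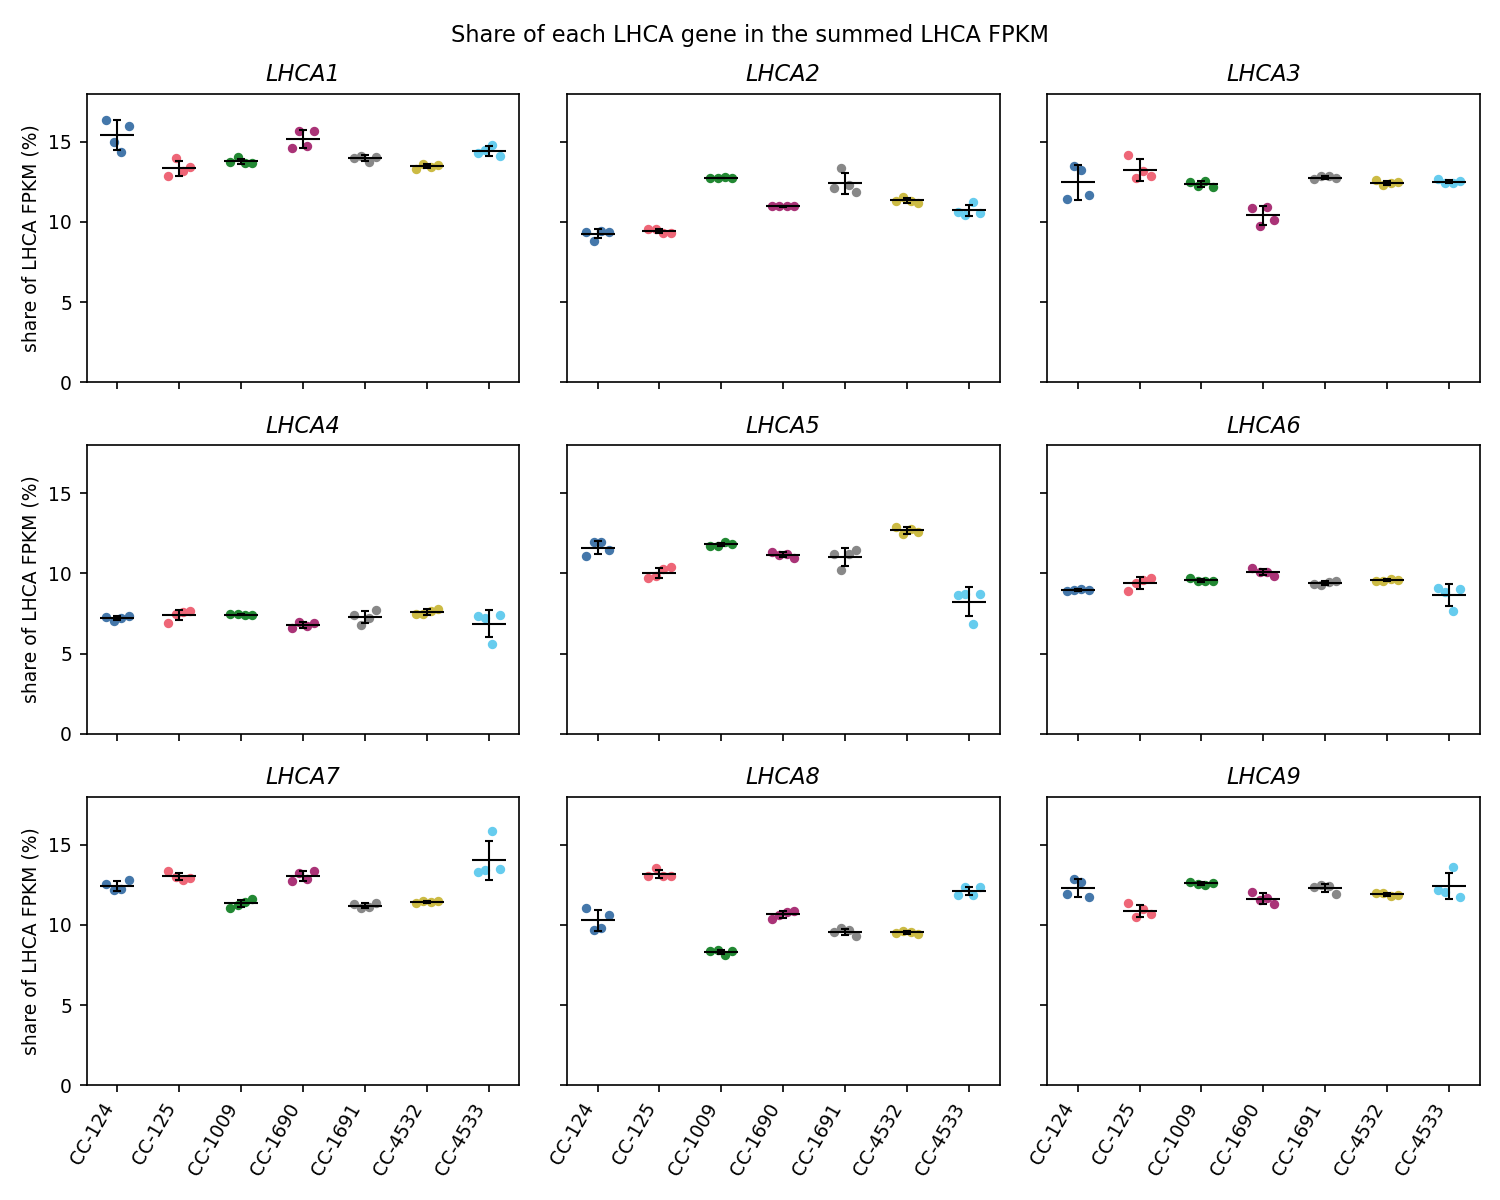
Share of each LHCA gene in the summed FPKM of the 9 genes (vertical axis, percent, from 0) by strain (horizontal axis). Points are libraries, with replicates 1 to 4 from left to right, bars are the mean and the SD of 4. LHCA8 is highest in CC-125 and lowest in CC-1009, LHCA5 is highest in CC-4532 and lowest in CC-4533, and CC-4533 replicate 3 lies apart for LHCA4, LHCA5, LHCA6 and LHCA7.

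LHCA8 and LHCA5 were the genes whose shares differed the most. LHCA8 took 13.1, 13.5, 13.1 and 13.0% in the replicates of CC-125 and 8.40, 8.43, 8.15 and 8.40% in those of CC-1009, above and below every other library. CC-4533 was also high for LHCA8 (12.1% ± 0.272, SD, n = 4), and CC-4532 and CC-1691 were low (9.53% ± 0.0716 and 9.58% ± 0.193). LHCA5 took 12.9, 12.5, 12.8 and 12.6% in CC-4532 and 8.63, 8.72, 6.87 and 8.73% in CC-4533, again above and below every other library. The CC-4533 replicates remained below all others when replicate 3, at 6.87%, was left out.

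CC-1690 differed in LHCA3 and LHCA6. Although its LHCA3 level was the highest of the 7 strain means, LHCA3 took only 10.9, 9.73, 10.9 and 10.1% of its LHCA RNA, below the 11.4 to 14.2% of the other 24 libraries. LHCA6 took 10.4, 10.1, 10.1 and 9.84%, above every other library. LHCA3 also differed between the replicate pairs of CC-124, at 11.4 and 11.7% in replicates 1 and 4, which had the higher levels, and 13.5 and 13.3% in replicates 2 and 3.

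The shares of LHCA2 fell into levels without a strain being alone at an end. LHCA2 took 12.7, 12.8, 12.8 and 12.7% in CC-1009 and 12.1, 13.4, 12.3 and 11.9% in CC-1691, but 9.39, 8.83, 9.43 and 9.36% in CC-124 and 9.54, 9.55, 9.28 and 9.33% in CC-125. In CC-1690 the share was 10.97 to 11.01%, nearly the same in 4 cultures whose LHCA2 levels ran from 2697 to 4792 FPKM.

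To test the proportions, the mean log2 level of the 9 genes was subtracted in each library from every gene before the same limma fit. By construction a gene that is high on this scale lowers the others slightly. All but LHCA4 and LHCA6 differed between strains by the F test (7 of 9, against 97.7% of all genes tested). Per strain, 7.7 to 69.2% of all genes were higher and 3.33 to 64.2% lower on this scale. Of the 63 differences of LHCA genes from the other 6 strains, 23 passed. The largest were LHCA5 in CC-4533 at -0.45 (SE 0.05, limma adjusted p = 2.13e-08), LHCA8 in CC-125 at 0.39 (SE 0.05, limma adjusted p = 7.52e-08) and LHCA8 in CC-1009 at -0.38 (SE 0.05, limma adjusted p = 2.29e-07). On this scale 11.6% of all genes were higher and 35.4% lower in CC-4533, 15% higher and 33.9% lower in CC-125, and 25.6% higher and 10.1% lower in CC-1009.

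The other differences in proportion were smaller. For the strains they concern, 39.8% of all genes were higher and 7.94% lower in CC-124, 7.7% higher and 64.2% lower in CC-1690, 69.2% higher and 3.33% lower in CC-1691, and 17.1% higher and 18.6% lower in CC-4532. For the separate pair, LHCA2 was relatively high in CC-1009 at 0.26 (SE 0.05, limma adjusted p = 9.48e-05) and in CC-1691 at 0.21, and relatively low in CC-124 at -0.27 (SE 0.05, limma adjusted p = 3.52e-05) and in CC-125 at -0.25, while LHCA9 differed only in CC-125, at -0.17. In the inner belt, LHCA3 differed only in CC-1690, at -0.28 (SE 0.05, limma adjusted p = 2.45e-05). LHCA7 was high in CC-4533 at 0.23 and low in CC-1691, CC-1009 and CC-4532 at -0.16, -0.14 and -0.14. LHCA8 was high in CC-4533 at 0.27 and low in CC-4532 and CC-1691 at -0.16 and -0.15. In the outer belt, LHCA5 was high in CC-4532 at 0.25 (SE 0.05, limma adjusted p = 3.93e-04) and in CC-1009 at 0.14 and low in CC-125 at -0.13, and LHCA6 was high in CC-1690 at 0.13 and low in CC-4533 at -0.12. LHCA1 was high in CC-124 at 0.14 and in CC-1690 at 0.11.

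Of the 23 differences, 15 passed the test whichever library was left out and 21 passed without CC-1690 replicate 2 and CC-4533 replicate 3. The pair that did not was LHCA1 in CC-1690 (0.10, limma adjusted p = 0.0833) and LHCA6 in CC-4533 (-0.07, limma adjusted p = 0.207). Within the 5 strains of library set 1 alone, LHCA8 remained low in CC-1009 (-0.26, limma adjusted p = 5.35e-04) but its differences in CC-1691 and CC-4532 were near 0 (-0.02 and -0.03), since the 2 strains with the highest LHCA8 shares belong to the other set. Also not passing within this set were LHCA5 and LHCA7 in CC-1009, LHCA1 and LHCA6 in CC-1690, and LHCA7 in CC-1691 and CC-4532 (limma adjusted p = 0.0654 to 0.744).

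Summed by place in the complex, the outer belt genes LHCA4, LHCA5 and LHCA6 took 29.9% ± 0.301 of the LHCA RNA in CC-4532 (SD, n = 4) and 23.8% ± 2.45 in CC-4533, above and below every other library. In CC-4533 the 4 values were 25.0, 24.8, 20.1 and 25.2%, and the 3 without replicate 3 still lay below the 25.6% that was the lowest of the other strains. The inner belt genes LHCA3, LHCA7 and LHCA8 took 32.1% ± 0.136 in CC-1009, below every other library, and 39.5% ± 0.810 in CC-125 and 38.7% ± 1.08 in CC-4533, the highest means. The separate pair LHCA2 and LHCA9 took 20.3% ± 0.416 in CC-125, below every other library, and 25.3% ± 0.0740 in CC-1009. This grouping was made with the values known and was not tested.

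Ratios between genes of the same library show the same differences without reference to the family. LHCA8 RNA was 0.706 ± 0.0169 times LHCA5 RNA in CC-1009 (SD, n = 4) and 0.752 ± 0.0151 times in CC-4532, but 1.31 ± 0.0577 times in CC-125. In CC-4533 the 4 ratios were 1.37, 1.42, 1.73 and 1.41. All 8 libraries of CC-125 and CC-4533 had a ratio above 1 and all 20 libraries of the other 5 strains a ratio below 1. This split is the same as that of the library sets, and whether the set has a part in it cannot be told apart from the strains. For LHCA2 and LHCA9 the ratio ran from 0.752 ± 0.0506 in CC-124 to 1.01 ± 0.00819 in CC-1009, and the sets were mixed in that order.

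**Figure D4:**
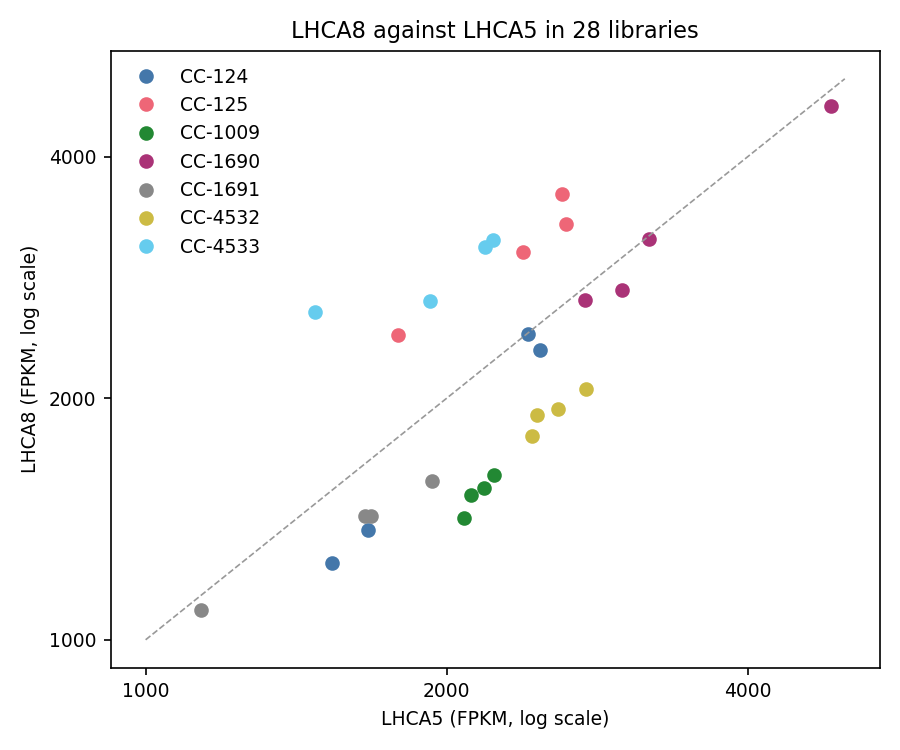
LHCA8 against LHCA5 RNA level in FPKM (both axes logarithmic), 1 point per library, colored by strain, with a dashed line of equal levels. The 8 points of CC-125 and CC-4533 lie above the line and the other 20 below it.

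The reaction center that these antennae serve offers another reference. The 10 nuclear PSI core genes PSAD1, PSAE1, PSAF1, PSAG1, PSAH1, PSAI1, PSAK1, PSAL1, PSAN1 and PSAO1 were all higher in CC-1690 on the deposited scale, with a median log2 difference of 0.82 against 0.69 for the LHCA genes, and all lower in CC-1691, with medians of -0.57 and -0.58. The direction in CC-1691 also depended on scaling, since with quantile normalization the PSI core medians were 0.13 in CC-1690 and 0.06 in CC-1691. The ratio of the geometric mean of the 9 LHCA genes to that of the 10 core genes was 1.02 ± 0.0448 in CC-1690 (SD, n = 4), 1.12 to 1.20 on average in the other strains, and highest in CC-4533 and CC-4532. Its values were 0.974 to 1.06 in the CC-1690 replicates, and only CC-1691 replicate 2, at 1.02, fell among them.

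Relative to the PSI core mean, 12 of the 63 differences were higher (5.01 to 67.5% of all genes per strain) and 13 lower (3.42 to 73.6%). CC-1690 held 5 of the lower ones (73.6% of all genes were lower and 5.01% higher on this scale), LHCA3 at -0.46 (SE 0.06, limma adjusted p = 2.74e-08), LHCA4 at -0.28, LHCA9 at -0.23, LHCA2 at -0.17 and LHCA8 at -0.14. LHCA1, LHCA5, LHCA6 and LHCA7 did not pass there. CC-4533 held 4 of the higher ones (14% of all genes were higher), LHCA8 at 0.36, LHCA7 at 0.32, LHCA9 at 0.16 and LHCA1 at 0.13, but LHCA5 was lower (29% of all genes were) at -0.36 (SE 0.06, limma adjusted p = 1.81e-05). In CC-4532 LHCA5 was higher at 0.33 (SE 0.06, limma adjusted p = 1.14e-04) and LHCA2 at 0.13 (20.3% of all genes were higher). In CC-125 LHCA8 at 0.42, LHCA3 at 0.15 and LHCA7 at 0.12 were higher (15.8% of all genes were), and LHCA2 at -0.22 and LHCA9 at -0.14 lower (31.3% of all genes were). LHCA1 was higher in CC-124 at 0.15 (39.7% of all genes were) and LHCA2 lower at -0.27 (7.75% of all genes were). In CC-1009 and CC-1691 LHCA2 was higher, at 0.24 and 0.20 (23.8 and 67.5% of all genes were), and LHCA7 and LHCA8 were lower, at -0.16 and -0.39 in CC-1009 and -0.18 and -0.16 in CC-1691 (10.5 and 3.42% of all genes were). All 25 differences passed without CC-1690 replicate 2 and CC-4533 replicate 3, and 21 passed whichever library was left out. Within library set 1, LHCA8 in CC-1690 was not lower (0.02, limma adjusted p = 0.702), nor was it in CC-1691 (-0.0024, limma adjusted p = 0.967). LHCA7 in CC-1009 (-0.07, limma adjusted p = 0.2645) and CC-1691 (-0.09, limma adjusted p = 0.0852) did not pass there either. Neither did LHCA2 in CC-4532 (0.11, limma adjusted p = 0.0705).

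Over the 28 libraries the 9 RNAs rose and fell together. The Pearson correlation of log2(FPKM + 0.1) between 2 LHCA genes was 0.701 to 0.977 over the 36 pairs, with a median of 0.917, and 22 pairs were above 0.9. These points share the scaling of their library, and the mean log2 level of the 9 genes had r = 0.915 with the log2 of the summed FPKM of the library (rho = 0.917, n = 28) and r = 0.875 after the strain means were subtracted. With the same summed FPKM in every library the median was 0.630 and the pair LHCA2 and LHCA8 had r = -0.191. Without the 2 libraries farthest from the median, CC-1690 replicate 2 and CC-1691 replicate 2, the median was 0.870. Within library set 1 it was 0.968 over 20 libraries and within library set 2 it was 0.776 over 8.

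The pairs that varied least alike were those with LHCA5, LHCA2 or LHCA8. LHCA5 and LHCA8 had the lowest correlation, 0.701, followed by LHCA2 and LHCA8 at 0.750 and LHCA5 and LHCA7 at 0.764. Without CC-4533 replicate 3 the lowest was that of LHCA2 and LHCA8, at 0.749. LHCA2 and LHCA8 were also the lowest pair within library set 1, at 0.845. When the mean of its strain was subtracted from each value, so that only differences between replicates remained, LHCA5 and LHCA8 had r = 0.940 and LHCA2 and LHCA8 r = 0.989. These pairs were thus less alike between strains than among replicates. Within library set 1 LHCA5 and LHCA8 had r = 0.937.

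Among replicates the correlations on the deposited scale were 0.896 to 0.994, with a median of 0.966 and 35 pairs above 0.9. The same summed FPKM in every library gave 0.639 to 0.982 among replicates, with a median of 0.864 and 11 pairs above 0.9. On the deposited scale the 3 pairs within the outer belt had 0.990 to 0.994, LHCA4 and LHCA5 the highest of all 36. LHCA1 and LHCA8, of different places, had 0.993. The outer belt genes were low together in CC-4533 replicate 3, and these pairs were not computed among replicates without it. Among replicates each gene had r = 0.961 (LHCA5) to 0.987 (LHCA3) with the mean of the other 8. Without CC-4533 this was 0.985 (LHCA5) to 0.995 (LHCA7). Which place held the most alike pairs over the 28 libraries depended on scaling. As deposited, the inner belt pairs had 0.960 to 0.967 and the outer belt pairs 0.912 to 0.977. With the same summed FPKM the inner belt pairs had 0.246 to 0.773 and the outer belt pairs 0.878 to 0.911, and with quantile normalization 0.350 to 0.589 and 0.786 to 0.921, where LHCA1 and LHCA5 reached 0.927. The slope of a gene on the mean of the other 8 among replicates was 1.17 for LHCA4, 1.12 for LHCA1, 1.08 for LHCA8, 0.84 for LHCA9 and 0.75 for LHCA3. With a slope below 1, the share of LHCA3 fell as the LHCA level rose, as in the replicate pairs of CC-124. The slope of LHCA3 was also 0.75 without CC-4533.

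**Figure D5:**
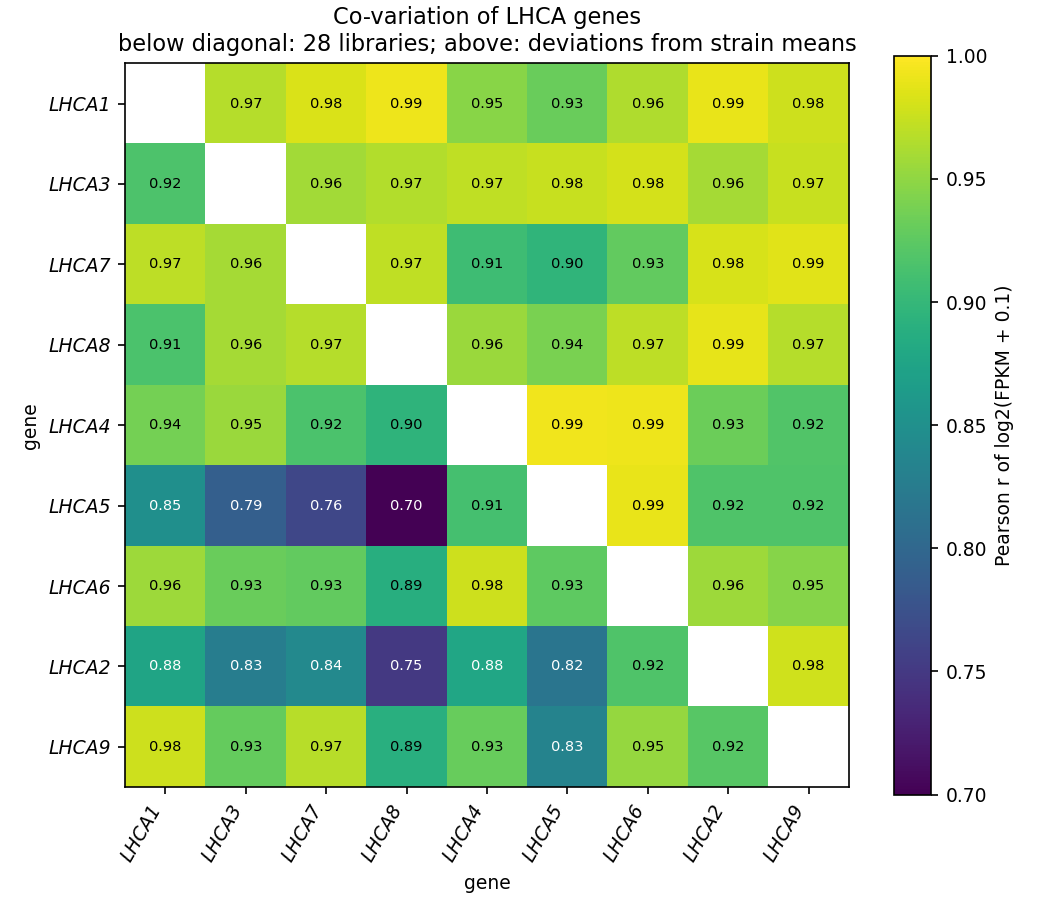
Pearson correlation of log2(FPKM + 0.1) between LHCA genes, with LHCA1 first, then the inner belt, the outer belt and the separate pair. Below the diagonal are the 28 libraries and above it deviations from the strain means, and the color scale starts at 0.7. The lowest value, 0.70, is that of LHCA5 and LHCA8 below the diagonal, and the outer belt genes LHCA4, LHCA5 and LHCA6 are at 0.99 with each other above it.

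The genes most like the LHCA mean were searched for among all others that were tested. Over the 28 libraries, 34 of 14776 other genes (0.230%) had a Pearson correlation above 0.9 with it, and the median over all 14776 was 0.01. The 10 highest were PSAG1 (0.988), PSBW1 (0.983), PSBX1 (0.977), PSBP1 (0.973), PSBO1 (0.969), PSAF1 (0.969), PSBR1 (0.969), LHCBM3 (0.957), PSAI1 (0.956) and PSBP3 (0.955). PSAG1, PSAF1 and PSAI1 encode PSI subunits, of which PSAG helps to bind the antenna and PSAF helps dock plastocyanin. PSBO1 and PSBP1 encode oxygen-evolving enhancer proteins of photosystem II (PSII), PSBP3 a PsbP-like lumenal protein, PSBR1, PSBW1 and PSBX1 small PSII proteins, and LHCBM3 a subunit of the PSII antenna. Above 0.9 were 8 of the 10 PSI core genes and 4 of the 9 LHCBM genes.

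After the strain means were subtracted, the 5 highest were LHCB5 (0.992), PSBX1 (0.989), PSAN1 (0.988), PSBP1 (0.988) and PSAO1 (0.987). LHCB5 encodes the minor PSII antenna protein CP26. PSAN1, a lumenal PSI subunit, had the lowest correlation of the 10 PSI core genes over all 28 libraries, 0.797, so that it followed the LHCA genes among replicates more closely than between strains.

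The listed genes of the PSII antenna, of extrinsic PSII proteins and of 2 electron carriers shared the LHCA directions of CC-1690 and CC-1691 on the deposited scale. Other electron transfer genes were not listed. In CC-1690 all 9 LHCBM genes, which encode the major PSII antenna, were higher on the deposited scale (34.2% of all genes were) with a median of 0.79, from LHCBM8 at 0.49 to LHCBM7 at 1.06. So were the 3 minor antenna genes LHCB4, LHCB5 and LHCB7, the 5 genes of extrinsic PSII proteins PSBO1, PSBP1, PSBP3, PSBQ1 and PSBR1, and PCY1 and FDX1, which encode plastocyanin and ferredoxin. In CC-1691 8 of 9, 2 of 3, 5 of 5 and 2 of 2 of these were lower (23.6% of all genes were). With quantile normalization the medians were nearer to 0 and some changed sign, 0.14 in CC-1690 and -0.04 in CC-1691 for the LHCBM genes, 0.0049 and -0.11 for the minor antenna, -0.14 and 0.16 for the extrinsic PSII proteins and -0.05 and -0.01 for PCY1 and FDX1. In CC-125, where 2 LHCA genes were higher, 8 of the 9 LHCBM genes were (30.4% of all genes were), with a median of 0.54 against 0.22 for the LHCA genes, but with quantile normalization these medians were 0.01 and -0.19.

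Genes whose products insert or pigment the antenna had other directions than the LHCA genes in CC-1690 on the deposited scale. In CC-1690, where the LHCA genes were higher on that scale, 3 of the 4 genes ALB3A, ALB3B, SRP43 and SRP54 were lower (35.3% of all genes were), SRP43 the most at -0.81 (limma adjusted p = 3.33e-07). SRP54 was listed by its symbol and encodes a subunit of the general signal recognition particle. The count of 4 is thus not of antenna genes alone. SRP43 escorts light-harvesting proteins through the stroma and ALB3 integrates them into the thylakoid membrane. All 4 had differences below 0 in CC-1690 under each of the 3 scalings. CAO1, chlorophyllide *a* oxygenase, which makes chlorophyll *b*, was also lower in CC-1690 at -0.20 (limma adjusted p = 0.0242) and had a negative value under each scaling. SRP54L and FTSY1, the chloroplast partners of SRP43, were added after the table was seen and were both lower in CC-1690, at a median of -0.48. Both were also lower in CC-4533, at a median of -0.95 (30.3% of all genes were), and higher in CC-4532, at 0.82. In CC-4533 2 of the 4 listed genes and CAO1 (-0.24) were lower too. There 4 LHCA genes were higher as deposited, but 7 were lower with quantile normalization. In CC-4532 ALB3A, ALB3B and SRP43 were higher (26.6% of all genes were) at 0.66, 0.27 and 0.40, as was CAO1 at 0.27 (limma adjusted p = 0.00633).

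LHL4 and ELIP2, distant relatives of the LHC proteins, and the PSI assembly factors Y3IP1 and PYG7 form a further list of 4 tested genes. All 4 were higher in CC-4532, from Y3IP1 at 0.46 to LHL4 at 0.92, and lower in CC-4533 (30.3% of all genes were), from Y3IP1 at -0.32 to LHL4 at -1.36. These directions were the same under the 3 scalings. In CC-1690 ELIP2 and LHL4 were higher on the deposited scale, at 0.51 and 0.81, but the median of the 4 genes was 0.41 as deposited and -0.14 with the same summed FPKM.

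The LHCA genes are spread over the genome. By their identifiers, LHCA1 (Cre06.g283050), LHCA6 (Cre06.g278213) and LHCA8 (Cre06.g272650) lie on chromosome 6 and LHCA4 (Cre10.g452050) and LHCA5 (Cre10.g425900) on chromosome 10. LHCA2 (Cre12.g508750), LHCA3 (Cre11.g467573), LHCA7 (Cre16.g687900) and LHCA9 (Cre07.g344950) are each on a chromosome without another LHCA gene. In the gene order of the RefSeq annotation of assembly v5.5, in which 9 of 9 were found, 198 genes lie between LHCA6 and LHCA1, 232 between LHCA8 and LHCA6 and 557 between LHCA4 and LHCA5. The nearest other antenna gene of any LHCA gene was LHCBM4, with 18 genes between it and LHCA1. The pairs on the same chromosome had r = 0.89 to 0.96 over the 28 libraries.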

How the data were processed

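Poly-A RNA of 28 cultures was sequenced on an Illumina HiSeq 3000 as 50 nt single reads. The authors mapped the reads with STAR to the CC-4532 v6.1 genome, counted them per gene with featureCounts by strand, with fractional counts for reads of several locations, and deposited FPKM values computed with DESeq2, rounded to 2 decimals. Paralogous genes may share reads by this counting. Versions are not given in the sources used here. A table of strain means by the same authors was not used. Depth is unknown, since the deposited unit is FPKM.

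Groups were taken from the strain labels. Values were taken as log2(FPKM + 0.1), on which the change of low genes is understated, and 14785 genes whose mean exceeded 1 FPKM in 1 or more strains were tested with limma 3.58.1 (R 4.3.3, empirical Bayes with an intensity trend), with Benjamini-Hochberg adjustment over all genes. 1 line with shifted columns was realigned. Shares, ratios and correlations were computed with Python 3.11.15, numpy 2.4.6, pandas 2.3.3 and scipy 1.17.1. Exact permutation tests were two-sided. The test was also run on simulated data with independent noise for each gene. That check does not cover deviations shared by the genes of a library.

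The genes named are the 9 members, the 10 others most correlated with the LHCA mean over 28 libraries, the 5 most correlated within strains, and from each list those with the largest and smallest difference in the strain described. Other list genes are named as the whole list. The members and lists were chosen with earlier results of these data known. Alternatives covered scaling, pseudocount, filter, threshold, array weights, a replicate block, library set 1 alone and each library left out. Leaving out CC-1690 replicate 2 and CC-4533 replicate 3 together, splitting the correlations by library set, and the genes SRP54L and FTSY1 were added after seeing the data.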

Additional observations from a re-analysis of the deposited data

Results flagged for a closer look

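In 2 of 63 combinations of gene and strain 1 level stood apart from the other 3 replicates by Dixon's criterion. LHCA3 in CC-1690 replicate 2 was at 4234 FPKM against 2688 to 2933 FPKM. LHCA7 in CC-4533 replicate 1 was at 2964 FPKM against 3375 to 3425 FPKM.

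For shares this was so in 8 of 63 combinations, 4 of them in CC-4533 replicate 3. In that library LHCA4 took 5.59%, LHCA5 6.87% and LHCA6 7.63% of the LHCA RNA, below the other replicates of CC-4533, and LHCA7 took 15.9%, above them. The library also had the lowest mean correlation with its own strain over all genes, 0.930, and the part of this in the shares was not tested. The other 4 were LHCA2 in CC-124 replicate 2 (8.83%), LHCA6 in CC-1009 replicate 1 (9.73%), LHCA8 in CC-125 replicate 2 (13.5%) and LHCA8 in CC-1009 replicate 3 (8.15%). The shares of a library are not independent of each other, and by chance about 1 in 20 groups would stand apart.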

How the results depend on the processing

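Directions on the deposited scale depended on the kind of scaling more than on any library. Median-ratio scaling left all 28 called differences the same, but it hardly changed the deposited values and so could not test their dependence on scaling. With the same summed FPKM 3 LHCA genes were higher in CC-1690 (11.3% of all genes were) and 2 lower in CC-1691 (5.59% of all genes were). On that scale 0 pair differences passed and the median correlation was 0.630. With quantile normalization the same values were 0, 0, 1 and 0.716, with 33.8% of all genes higher in CC-1690 and 23.2% lower in CC-1691. Of differences called as deposited, the sign reversed with the same summed FPKM for LHCA3 (-0.18) and LHCA4 (-0.0012) in CC-1690, LHCA2 in CC-1691 (0.11), and LHCA3 (-0.12) and LHCA9 (-0.10) in CC-4533. With quantile normalization it reversed for LHCA3 in CC-124 (0.048), for LHCA2 (-0.083), LHCA3 (-0.39), LHCA4 (-0.070), LHCA5 (-0.074), LHCA8 (-0.080) and LHCA9 (-0.13) in CC-1690, for LHCA1 (0.020), LHCA2 (0.26), LHCA3 (0.11), LHCA5 (0.046), LHCA6 (0.015) and LHCA9 (0.083) in CC-1691, and for LHCA3 (-0.28), LHCA7 (-0.17), LHCA8 (-0.038) and LHCA9 (-0.26) in CC-4533. Tested against a 2-fold difference, 0 of the 15 higher, 13 lower, 9 CC-1690, 9 CC-1691 and 11 pair differences passed, and 0 relative to the LHCA mean or the PSI core, higher or lower. With array weights 23 were higher, 39 passed relative to the LHCA mean, and 27 were higher and 23 lower relative to the PSI core. The percentage of all genes that were higher on the deposited scale also rose in every strain with array weights. The larger count of LHCA genes there is thus not particular to them. For the scales relative to the LHCA mean and the PSI core, the percentage of all genes with array weights is not given here. With library set 1 alone, which has fewer strains, 9 were higher, 7 pair differences passed, 9 passed relative to the LHCA mean and 7 were lower relative to the PSI core, where LHCA8 in CC-1690 reversed to 0.020. At an adjusted p below 0.01, 14 passed relative to the LHCA mean. Without CC-1690 replicate 2, with or without CC-4533 replicate 3, 7 pair differences passed. Without the 2 libraries farthest from the median, the median correlation was 0.870. Leaving out each library in turn gave 9 genes that differed between strains, 13 to 17 higher, 12 to 17 lower, 8 to 9 in CC-1690 and in CC-1691, 7 to 15 pair differences, 6 to 8 genes and 17 to 27 differences relative to the LHCA mean, and 10 to 14 higher and 12 to 15 lower relative to the PSI core. The cause of these changes was not tested.

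Replicate numbers did not pair the samples, since the 84 same-numbered pairs of libraries deviated together with a mean correlation of -0.0024 and 12 of them above 0.1. With the replicate number as a block 15 differences were higher and 13 lower, 11 pair differences passed, 18 passed relative to the LHCA mean, and 12 were higher and 13 lower relative to the PSI core.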
